A study of Homo sapiens with 12 samples.

Results

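The E2F and RB family was followed through 10 genes, E2F1 to E2F8, RB1 and RBL1, taken by symbol from the count tables of QGP-1 and BON-1 cells. All 10 were among the 28008 genes counted, and all 10 passed the filter on low counts in both lines, where 15089 genes were tested in QGP-1 and 14625 in BON-1 cells. QGP-1 and BON-1 are human cell lines established from pancreatic neuroendocrine tumors (pNETs). Both carried a tet-MUC1shRNA vector, in which doxycycline (DOX) switches on a hairpin RNA that targets the MUC1 mRNA. The 4 groups were cells of either line with this vector, each kept in vehicle (DMSO) or in 500 ng/mL DOX for 7 days, with 3 cultures in each group and 12 libraries in all. No library of DOX-treated cells with a control hairpin was analysed here, so the effect of the hairpin and of DOX itself cannot be told apart, and 1 hairpin sequence stands for the silencing.

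E2F proteins bind DNA at the promoters of genes needed for DNA replication and cell division. E2F1, E2F2 and E2F3 are known mainly as activators, E2F4 and E2F5 as repressors that act together with pocket proteins, and E2F6, E2F7 and E2F8 as repressors that do not need them. The pocket proteins RB1, RBL1 (p107) and RBL2 (p130) hold E2F proteins in check until cyclin-dependent kinases phosphorylate them, and most E2F proteins bind DNA as pairs with TFDP1 or TFDP2.

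Several family promoters carry E2F-type motifs themselves, and these are shown first so that the members can be compared by the letters of their promoters. The windows come from RefSeq on GRCh38.p14 and run from 250 bases before to 50 bases after an annotated start. Entries were found for 8 of the 10 genes, all but E2F5 and E2F8, and the entry of RB1 lies at a start inside the gene. Searched on both strands were TTTCGCG as well as TTTGGCG, together with TTTCCCG and lastly TTTGCCG. At least 1 of them was found in 5 of the 9 family windows (55.6%), and each of these 5 held 2 or more, against 8.67% and 0.681% of all 35116 windows. The 150 bases before the start follow for the activators E2F1, E2F2 and E2F3 and for RBL1, which hold matches, and for E2F7, which holds none. Matches are in capitals, and each sequence is written 5′ to 3′ on the strand of its gene.
E2F1: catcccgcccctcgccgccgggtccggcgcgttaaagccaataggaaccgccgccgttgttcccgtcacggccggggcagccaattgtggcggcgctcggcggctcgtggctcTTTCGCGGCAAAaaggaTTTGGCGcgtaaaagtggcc
E2F2: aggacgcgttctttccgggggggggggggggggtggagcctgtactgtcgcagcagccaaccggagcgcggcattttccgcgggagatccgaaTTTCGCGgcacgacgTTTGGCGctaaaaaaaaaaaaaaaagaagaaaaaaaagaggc
E2F3: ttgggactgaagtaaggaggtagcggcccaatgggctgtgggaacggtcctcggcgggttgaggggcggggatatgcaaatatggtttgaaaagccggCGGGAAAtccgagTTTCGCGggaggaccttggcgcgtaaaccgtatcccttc
RBL1: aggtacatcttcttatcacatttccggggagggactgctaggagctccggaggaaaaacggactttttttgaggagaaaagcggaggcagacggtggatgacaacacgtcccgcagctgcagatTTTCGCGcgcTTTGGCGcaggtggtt
E2F7: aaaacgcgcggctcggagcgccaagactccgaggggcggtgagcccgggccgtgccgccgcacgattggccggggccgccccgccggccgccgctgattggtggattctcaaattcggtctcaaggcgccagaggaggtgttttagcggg

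The stretch shown for E2F1 is chr20:33686386-33686535 on the minus strand, where the TTTCGCG and the reversed TTTGCCG overlap. That of E2F2 is chr1:23531234-23531383 on the minus strand, and that of E2F3 is chr6:20401729-20401878 on the plus strand. RBL1 is shown at chr20:37095998-37096147 and E2F7 at chr12:77065570-77065719, both on the minus strand. E2F1, E2F2 and RBL1 each held a TTTCGCG followed on the same strand by a TTTGGCG within the last 57 bases before the start. In E2F3 the first of its 2 annotated starts held a TTTCGCG and a reversed TTTCCCG, and the second start held no match. E2F6 held TTTCCCG at both of its matches, farther from the start, and no match was found in the windows of E2F4, E2F7 and RB1. A match says only that these letters are in the window.

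**Figure D1:**
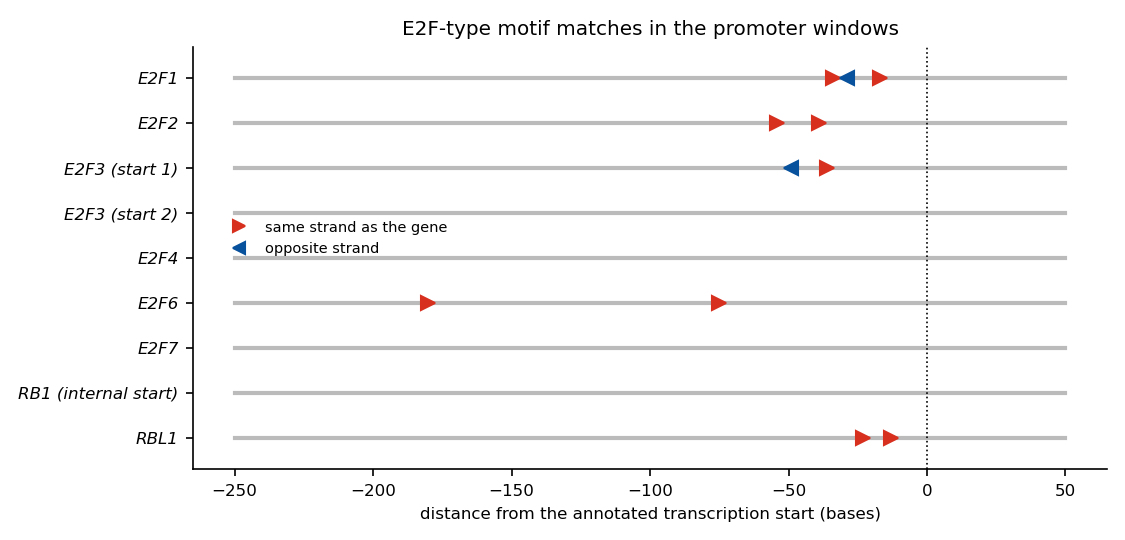
E2F-type motif matches in the 9 RefSeq promoter windows of 8 family genes, by distance in bases from the annotated start (dotted line). Triangles point along the strand of the match, and the matches of E2F1, E2F2, E2F3 and RBL1 lie within 57 bases before the start.

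Of the 10 family genes, 3 were lower with DOX in QGP-1 cells (E2F1, E2F2 and RBL1) and 3 were higher (E2F3, E2F7 and RB1). In BON-1 cells 2 were lower (E2F4 and RBL1) and 2 were higher (E2F6 and E2F7). RBL1 was thus called lower and E2F7 called higher in both lines. The share of all genes called the same way in both lines was not computed. A call in a single line does not show a different response, which is tested below. The calls rest on edgeR's quasi-likelihood test of the raw counts at a Benjamini-Hochberg adjusted p below 0.05. Among all genes tested, 17.7% were lower and 17.3% higher in QGP-1 cells, and 18.3% were lower and 17.0% higher in BON-1 cells. The median log2 fold change of the 10 genes was −0.04 in QGP-1 and −0.01 in BON-1 cells, against −0.01 for all genes in either line. The members' calls were thus divided between the directions, and their median lay close to that of all genes. In bulk RNA, fewer cells in a cycle phase and less RNA per cell cannot be told apart.

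Library totals ran from 38224144 to 50525926 counts for QGP-1 and from 15981954 to 28484324 for BON-1. The least abundant member count of any library was 527, for E2F1 in BON-1 cells, so that counting error is a part of the spread between the BON-1 libraries. MUC1, the target of the hairpin, had a log2 fold change of −2.91 in QGP-1 and −2.79 in BON-1 cells (edgeR adjusted p = 8.24e-07 and 6.51e-11). Levels below are counts scaled by TMM and library size (CPM), within a line except where libraries are said to be scaled together. MUC1 was 5.65 to 7.19 CPM with vehicle and 0.705 to 1.04 CPM with DOX in QGP-1 cells. In BON-1 cells it was 15.6 to 20.7 CPM with vehicle and 1.48 to 3.97 CPM with DOX. The levels and sums of cell type markers come from all 12 libraries scaled together. The 10 neuroendocrine markers summed to 4385 to 5104 CPM with vehicle and 5191 to 5860 CPM with DOX in QGP-1 libraries, and to 11188 to 14601 CPM with vehicle and 9107 to 9456 CPM with DOX in BON-1 libraries, with NEUROD1 at 0 in all QGP-1 and ISL1 at 0 in all BON-1 libraries. In BON-1 cells CHGA fell from a mean of 7875 to 2870 CPM, while the 8 markers tested there had 4 negative and 4 positive log2 fold changes. The fibroblast sum was 1.77 to 3.68 CPM with vehicle and 1.17 to 1.33 CPM with DOX in QGP-1, and 5.02 to 6.42 and 10.4 to 11.1 CPM in BON-1 cells. The immune sum was higher with DOX in both lines, at 17.3 to 21.5 against 10.8 to 13.2 CPM in QGP-1 and 51.2 to 55.4 against 25.0 to 27.5 CPM in BON-1 cells. Most of it was LYZ in QGP-1 (means of 11.3 CPM with vehicle and 17.5 with DOX) and CD68 in BON-1 cells (24.5 and 49.5 CPM). The acinar sum was lower with DOX, at 29.6 to 41.0 against 84.7 to 155 CPM in QGP-1 and 19.1 to 26.8 against 34.6 to 44.6 CPM in BON-1 cells. Most of it was PRSS1, with means of 124 and 34.8 CPM in QGP-1 and 37.5 and 22.5 CPM in BON-1 cells with vehicle and DOX. CHGA, LYZ, CD68 and PRSS1 were named after their values were seen. The part of these marker sums in the results was not tested.

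E2F1, the founding activator of the family, lies at chr20:33675477-33686385 on the minus strand of GRCh38. In QGP-1 cells its level was 62.7, 55.9 and 51.3 CPM in the vehicle libraries and 37.1, 39.1 and 42.0 CPM with DOX. Every DOX library lay below every vehicle library. The means were 56.7 ± 5.74 and 39.4 ± 2.47 CPM (SD, n = 3). The log2 fold change was −0.52 (SE, the standard error, 0.09, edgeR adjusted p = 0.000573). In BON-1 cells E2F1 stood at 35.0, 32.9 and 31.8 CPM with vehicle and 33.8, 30.5 and 31.9 CPM with DOX. These groups overlapped, and the log2 fold change of −0.05 had a 95% interval from −0.26 to 0.15 (edgeR adjusted p = 0.713).

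E2F2, a second activator, lies at chr1:23506438-23531233 on the minus strand. Its QGP-1 levels were 43.5, 46.5 and 36.8 CPM with vehicle and 36.4, 32.0 and 29.3 CPM with DOX. The groups were separated by a narrow gap, since the lowest vehicle library was close to the highest DOX library. The log2 fold change was −0.38 (SE 0.11, edgeR adjusted p = 0.0137), and the call was lost without vehicle replicate 2 (−0.30, adjusted p = 0.0838) or without DOX replicate 3 (−0.31, adjusted p = 0.0573). BON-1 levels were 33.5, 33.2 and 32.0 CPM with vehicle and 34.1, 32.6 and 31.8 CPM with DOX, close to the same in all 6 libraries. The 95% interval of the BON-1 log2 fold change ran from −0.21 to 0.20 (edgeR adjusted p = 0.976).

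E2F3, the last of the activators, lies at chr6:20401879-20493714 on the plus strand, and it was called higher in QGP-1 cells. Levels there were 74.1, 73.8 and 77.4 CPM with vehicle and 86.1, 88.5 and 89.2 CPM with DOX. Each DOX library was above each vehicle library, with a log2 fold change of 0.23 (SE 0.07, edgeR adjusted p = 0.0188). This call depended on single libraries, with adjusted p values of 0.0653, 0.0764, 0.0601 and 0.0672 and log2 fold changes from 0.21 to 0.23 without vehicle replicate 1, vehicle replicate 2, DOX replicate 2 or DOX replicate 3. BON-1 levels were 56.0, 55.1 and 57.5 CPM with vehicle and 60.1, 64.4 and 65.7 CPM with DOX. There too the groups did not overlap, but the log2 fold change of 0.18 (SE 0.08, edgeR adjusted p = 0.110) did not pass. The annotation holds 2 pseudogenes of E2F3 and the intronic transcript E2F3-IT1 on the same strand, so shared reads make its value uncertain to that extent.

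E2F4, the pocket-bound repressor that prevails in resting cells, lies at chr16:67192155-67198918 on the plus strand and has 1 annotated pseudogene. BON-1 levels were 63.0, 63.5 and 57.1 CPM with vehicle and 42.6, 43.6 and 42.2 CPM with DOX. The 3 DOX libraries lay close together and well below the vehicle libraries, with a log2 fold change of −0.52 (SE 0.09, edgeR adjusted p = 3.72e-05) that passed in all 6 fits without 1 library. In QGP-1 cells the levels were 47.9, 47.3 and 43.4 CPM with vehicle and 44.3, 39.5 and 34.7 CPM with DOX. The groups overlapped, and the log2 fold change of −0.22 (SE 0.10, edgeR adjusted p = 0.0835) did not pass, but it did without DOX replicate 1 (−0.31, adjusted p = 0.0208) and with the replicate number as a block (−0.23, adjusted p = 0.0367).

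E2F5, its close relative, lies at chr8:85177154-85217158 on the plus strand and overlaps RBIS on the opposite strand. QGP-1 levels were 18.3, 17.6 and 20.4 CPM with vehicle and 26.5, 20.2 and 21.7 CPM with DOX. One DOX library stood above the rest, and the groups overlapped. The log2 fold change of 0.28 (SE 0.11, edgeR adjusted p = 0.0715) did not pass with all libraries, but did without vehicle replicate 3 (0.35, adjusted p = 0.0496), without DOX replicate 2 (0.36, adjusted p = 0.0395) or with no filter on low counts (0.29, adjusted p = 0.0466). In BON-1 cells E2F5 was 41.4, 37.4 and 38.8 CPM with vehicle and 37.9, 34.6 and 40.2 CPM with DOX, with overlapping groups and a 95% interval of the log2 fold change from −0.26 to 0.14.

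E2F6, a repressor that works with polycomb-type complexes, lies at chr2:11444375-11466177 on the minus strand and has 4 annotated pseudogenes that could share its reads. Its BON-1 levels were 29.8, 27.7 and 32.5 CPM with vehicle and 35.5, 40.6 and 35.1 CPM with DOX. The DOX libraries were all above the vehicle libraries, with a log2 fold change of 0.31 (SE 0.10, edgeR adjusted p = 0.0213). The call was lost without vehicle replicate 1 (0.30, adjusted p = 0.0520), vehicle replicate 2 (0.25, adjusted p = 0.128) or DOX replicate 2 (0.23, adjusted p = 0.129). QGP-1 levels were 34.6, 38.4 and 41.6 CPM with vehicle and 45.1, 38.2 and 39.6 CPM with DOX. These overlapped, and the 95% interval of the log2 fold change ran from −0.10 to 0.30 (edgeR adjusted p = 0.447).

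E2F7 and E2F8 are atypical repressors with duplicated DNA-binding domains that act without a TFDP partner. E2F7 lies at chr12:77021248-77065569 on the minus strand, and its QGP-1 levels were 17.9, 23.3 and 21.6 CPM with vehicle and 26.2, 29.5 and 27.1 CPM with DOX. All DOX libraries were higher than all vehicle libraries, with a log2 fold change of 0.39 (SE 0.11, edgeR adjusted p = 0.0113). Without vehicle replicate 1, the library with the lowest E2F7, the call was lost (0.30, adjusted p = 0.0565). BON-1 levels were several times as high, at 106, 101 and 109 CPM with vehicle and 121, 127 and 139 CPM with DOX. Again the groups did not overlap, and the log2 fold change of 0.30 (SE 0.08, edgeR adjusted p = 0.00369) passed in all 6 fits without 1 library.

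E2F8 lies at chr11:19224063-19241620 on the minus strand and did not pass in either line. In QGP-1 cells it was 43.5, 47.4 and 41.6 CPM with vehicle and 39.0, 40.5 and 37.3 CPM with DOX. Each DOX library was below each vehicle library, but the log2 fold change of −0.18 (SE 0.08) had an adjusted p of 0.107 in edgeR. BON-1 levels were 67.8, 61.1 and 72.0 CPM with vehicle and 60.8, 61.9 and 75.8 CPM with DOX, with overlapping groups and a 95% interval of the log2 fold change from −0.21 to 0.18. In QGP-1 cells the log2 fold changes of E2F7 and E2F8 had opposite signs, and the difference between them was not tested.

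RB1, the retinoblastoma tumor suppressor, lies at chr13:48303744-48599436 on the plus strand. In QGP-1 cells its level was 144, 145 and 141 CPM with vehicle and 173, 161 and 166 CPM with DOX. The DOX libraries were all higher, with a log2 fold change of 0.22 (SE 0.06, edgeR adjusted p = 0.0179), and the adjusted p was 0.0523 without vehicle replicate 1 and 0.0519 without vehicle replicate 2, at log2 fold changes of 0.22 in both fits. In BON-1 cells RB1 was 180, 154 and 168 CPM with vehicle and 156, 168 and 189 CPM with DOX. The groups overlapped through most of their range, and the 95% interval of the log2 fold change ran from −0.14 to 0.20 (edgeR adjusted p = 0.820). The gene overlaps 11 annotated genes, LPAR6 in an intron on the opposite strand among them, and whether the authors counted by strand is not given in the sources used here.

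RBL1, the pocket protein p107 and itself a classical E2F target, lies at chr20:36996349-37095997 on the minus strand and had the most negative log2 fold change of the 10 genes in BON-1 cells. Its QGP-1 levels were 31.2, 32.3 and 35.0 CPM with vehicle and 26.2, 22.0 and 23.2 CPM with DOX. BON-1 levels were 88.3, 91.0 and 94.4 CPM with vehicle and 59.0, 56.2 and 62.8 CPM with DOX. In both lines every DOX library lay below every vehicle library. The log2 fold changes were −0.46 in QGP-1 (SE 0.10, edgeR adjusted p = 0.00198) and −0.62 in BON-1 cells (SE 0.08, edgeR adjusted p = 1.09e-06). Both calls passed in all 6 fits of their line that left out 1 library.

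**Figure D2:**
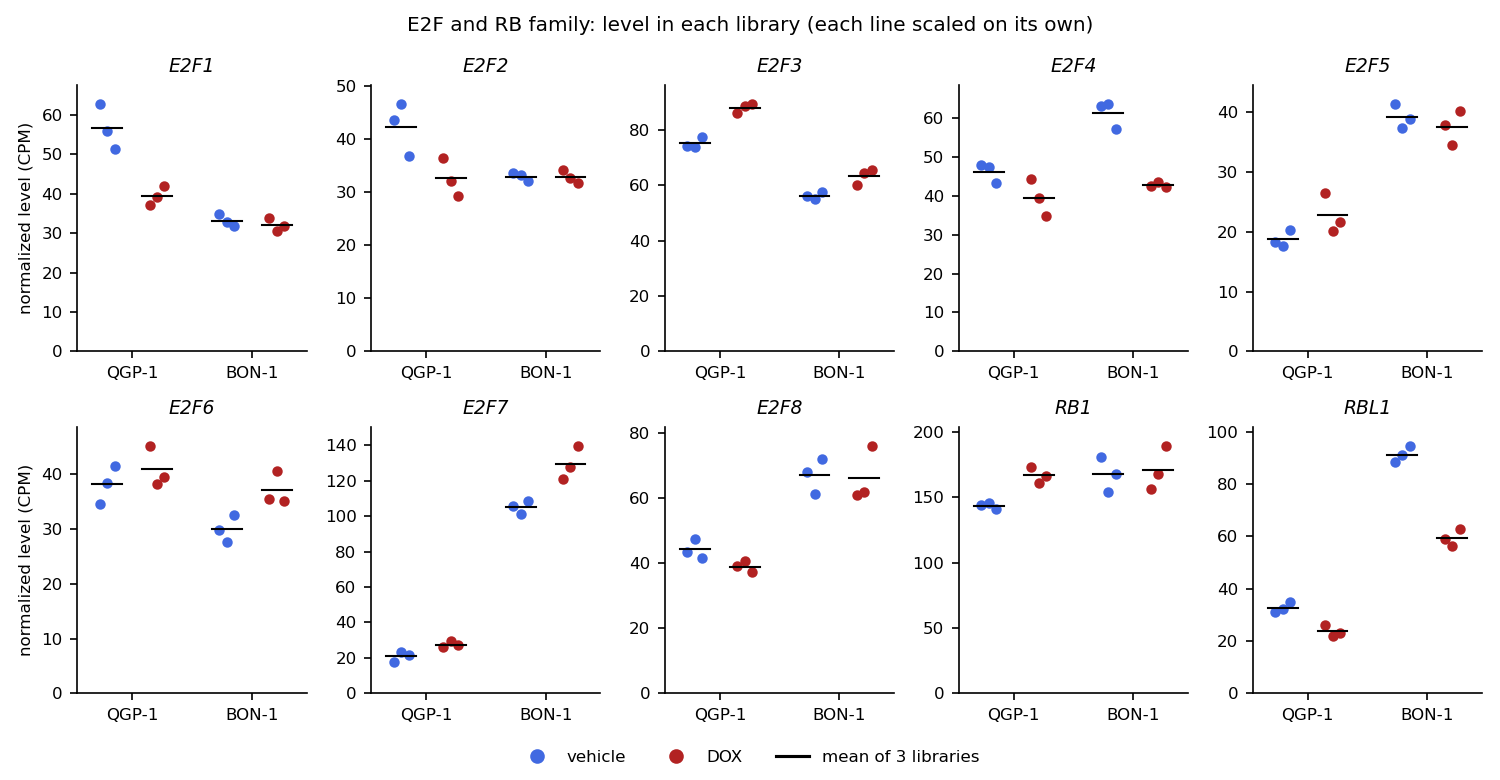
Level of the 10 family genes in each of the 12 libraries, in CPM scaled by TMM within each line, with points for libraries (vehicle blue, DOX red) and bars for the mean of 3. RBL1 was lower and E2F7 higher with DOX in both lines, E2F1 and E2F2 were lower in QGP-1 cells and E2F4 was lower in BON-1 cells.

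RB1 and RBL1 were also compared within each library. Per length, on the authors' TPM scale, the ratio of RB1 to RBL1 was 6.06, 5.91 and 5.29 in the QGP-1 vehicle libraries and 8.66, 9.59 and 9.39 with DOX. In BON-1 cells it was 2.68, 2.22 and 2.33 with vehicle and 3.47, 3.91 and 3.95 with DOX. The ratio was thus higher in each DOX library than in any vehicle library of its line. Group means were 5.76 ± 0.409 and 9.21 ± 0.491 in QGP-1 cells, and 2.41 ± 0.239 and 3.77 ± 0.267 in BON-1 cells (SD, n = 3). A ratio within a library is free of the scaling between libraries, but shows only unequal change of RB1 and RBL1.

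Activators were set against repressors in the same way, as the share of the summed TPM of E2F1 to E2F8 that came from E2F1, E2F2 and E2F3. In QGP-1 cells this activator share was 43.8%, 41.8% and 40.6% with vehicle and 36.3%, 39.3% and 40.7% with DOX. The means were 42.1% ± 1.63 and 38.8% ± 2.26 (SD, n = 3), and the groups overlapped by a small margin at 1 library each. In BON-1 cells the share was 23.2%, 23.6% and 22.9% with vehicle and 25.4%, 24.7% and 23.8% with DOX. There each DOX library was above each vehicle library, at means of 23.2% ± 0.331 and 24.6% ± 0.823 (SD, n = 3). On raw counts, without division by length, the BON-1 groups overlapped, at 28.8%, 29.4% and 28.2% with vehicle and 30.1%, 29.3% and 28.0% with DOX. No test was run on these shares, which are given as a description.

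The order of the E2F genes by share in QGP-1 vehicle libraries was E2F4, E2F1, E2F3, E2F6, E2F8, E2F5, E2F2 and E2F7. The ranges of E2F4 and E2F1 overlapped, as did those of E2F6, E2F8 and E2F5, but E2F4 was above E2F1 within each of these libraries. In BON-1 vehicle libraries the order was E2F4, E2F5, E2F7, E2F8, E2F1, E2F3, E2F6 and E2F2, and the ranges of the neighbours E2F7 and E2F8 were the ones to overlap. Within each BON-1 vehicle library E2F7 was above E2F8. With DOX, the shares of the activators went opposite ways in QGP-1 cells. The share of E2F1 was 20.8% ± 1.77 with vehicle and 15.5% ± 1.62 with DOX (SD, n = 3), while that of E2F3 was 13.7% ± 0.680 and 17.1% ± 1.07, so that E2F3 ranked above E2F1 with DOX. Their ranges overlapped between libraries, but within each DOX library E2F3 was above E2F1 (9.08 against 7.91, 11.6 against 10.4 and 11.1 against 10.6 TPM). E2F4 held the first rank in this line, at 22.6% ± 0.718 with vehicle and 20.6% ± 1.64 with DOX. In BON-1 cells the share of E2F4 was 24.5% ± 1.56 with vehicle and 17.7% ± 0.824 with DOX, which took it from rank 1 to rank 3. E2F7 stood at 14.0% ± 0.416 and 17.7% ± 0.701 there, and E2F5 at 18.1% ± 0.484 and 17.9% ± 0.974. With DOX, E2F4, E2F5 and E2F7 therefore could not be ranked beyond their spread in BON-1 cells. E2F4 and E2F5 together made up 42.7% ± 1.52 of BON-1 E2F TPM with vehicle and 35.5% ± 0.786 with DOX, and E2F6, E2F7 and E2F8 made up 34.1% ± 1.84 and 39.8% ± 1.53. In QGP-1 cells these shares were 33.2% ± 0.502 and 34.2% ± 2.53 for the first class and 24.7% ± 1.69 and 27.0% ± 0.389 for the second.

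**Figure D3:**
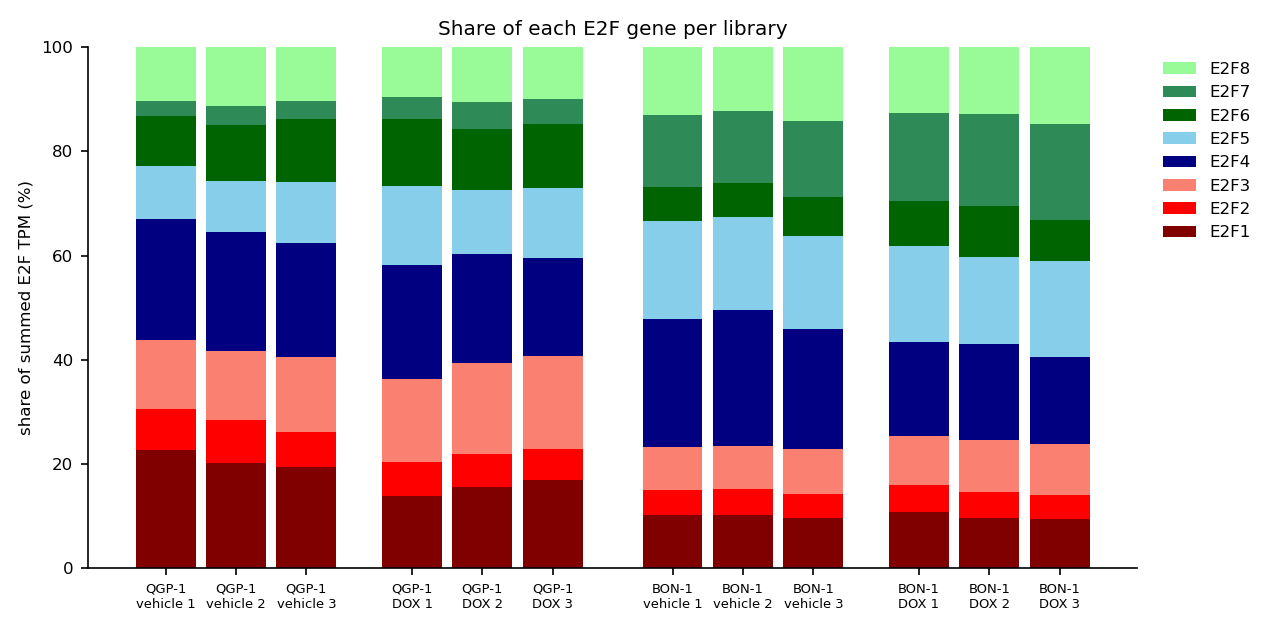
Share of each E2F gene in the summed TPM of E2F1 to E2F8 in each library, in percent (activators red, E2F4 and E2F5 blue, E2F6 to E2F8 green). Activators took 36.3% to 43.8% of the sum in QGP-1 and 22.9% to 25.4% in BON-1 libraries, and the band of E2F4 was narrower with DOX in BON-1 cells.

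Whether the lines differed in response was tested as a line by DOX interaction in a fit of all 12 libraries over 16598 genes. Line, growth medium and sequencing depth cannot be told apart in such a difference. E2F1 was the 1 member called, and no member was called in the other direction, while 8.80% of all genes had a higher and 7.92% a lower log2 fold change in BON-1 than in QGP-1 cells. The difference for E2F1, BON-1 minus QGP-1, was 0.48 on the log2 scale (SE 0.13, 95% interval 0.20 to 0.76, edgeR adjusted p = 0.0153). It was lost without QGP-1 vehicle replicate 1 (0.40, adjusted p = 0.0544), QGP-1 DOX replicate 1 (0.38, adjusted p = 0.0535), BON-1 vehicle replicate 3 (0.42, adjusted p = 0.0523) or BON-1 DOX replicate 1 (0.42, adjusted p = 0.0573). For E2F2 the difference was 0.38 (SE 0.14, edgeR adjusted p = 0.0738), and it passed without QGP-1 vehicle replicate 3 (0.47, adjusted p = 0.0273) or QGP-1 DOX replicate 1 (0.41, adjusted p = 0.0452). Although E2F4 was called in BON-1 and not in QGP-1 cells, its difference of −0.28 did not pass (95% interval −0.55 to −0.01, edgeR adjusted p = 0.156). E2F6, called in BON-1 cells alone, did not pass either (0.22, interval −0.08 to 0.51). Nor did E2F3 (−0.04, interval −0.26 to 0.18) and RB1 (−0.18, interval −0.41 to 0.06), which were called in QGP-1 and not in BON-1 cells. RBL1 and E2F7, called in both lines, had differences of −0.15 (interval −0.40 to 0.11) and −0.08 (interval −0.36 to 0.19).

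Without DOX the lines differed in 9 of the 10 genes. In the vehicle libraries, scaled together, E2F7 was 21.5 CPM in QGP-1 and 102 CPM in BON-1 cells, a log2 difference of 2.25 (SE 0.10) or 4.75-fold. RBL1 was 33.7 and 88.6 CPM, a log2 difference of 1.40 (SE 0.09) or 2.63-fold. E2F5 was 19.3 and 38.1 CPM (log2 difference 0.98), E2F8 was 45.3 and 65.0 CPM (0.52) and E2F4 was 47.4 and 59.5 CPM (0.33). All 3 activators were lower in BON-1 cells. E2F1 was 58.1 CPM in QGP-1 and 32.3 CPM in BON-1 cells (log2 difference −0.85), E2F2 was 43.3 and 32.0 CPM (−0.44) and E2F3 was 77.0 and 54.6 CPM (−0.50). E2F6 was lower as well, at 39.2 and 29.1 CPM (−0.43). These 9 differences had adjusted p values from 1.48e-16 for E2F7 to 0.00262 for E2F4 in edgeR. That of E2F4 did not pass with the replicate number as a block (0.23, adjusted p = 0.100). RB1, at 147 and 163 CPM, had a log2 difference of 0.14 (95% interval −0.02 to 0.31, edgeR adjusted p = 0.110). It passed without QGP-1 DOX replicate 1 (0.17, adjusted p = 0.0435), without BON-1 vehicle replicate 2 (0.19, adjusted p = 0.0444), with library size in place of TMM (0.25, adjusted p = 0.00415) and with a minimum of 10 counts in every library (0.19, adjusted p = 0.0303). Of all genes, 37.5% were lower and 37.5% higher in BON-1 cells, so a difference between the lines was common, and line, growth medium and sequencing depth cannot be told apart in it.

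**Figure D4:**
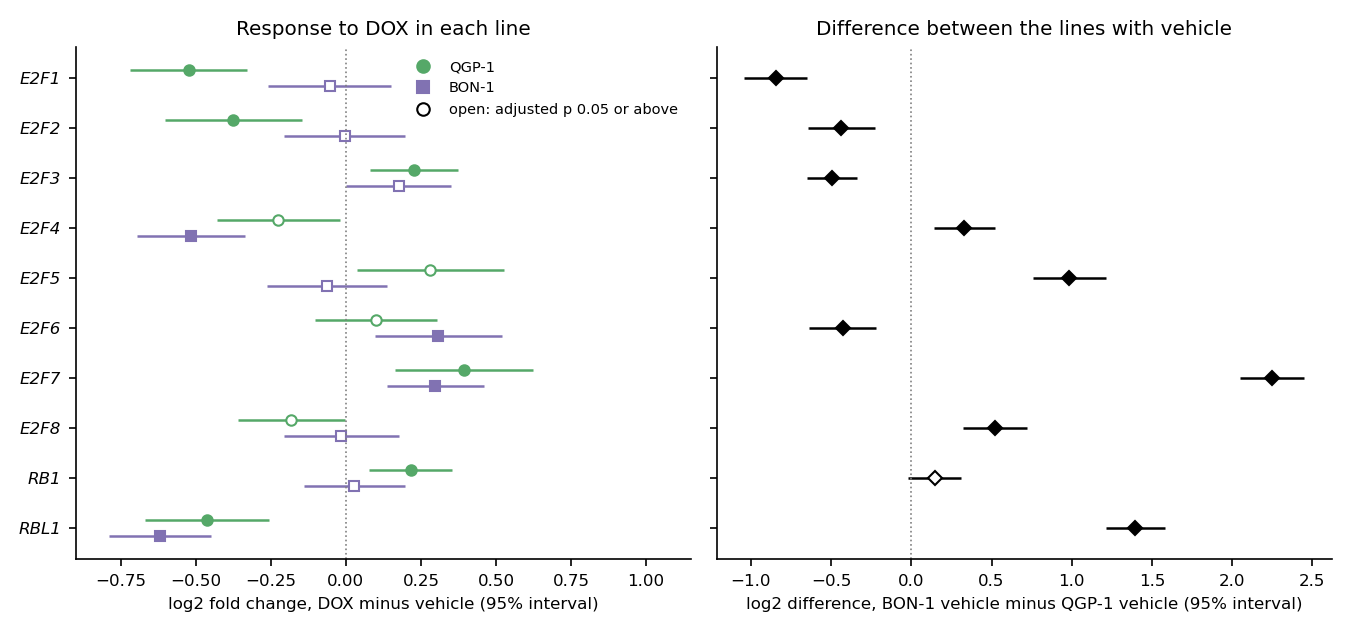
Left, log2 fold change of each family gene with DOX in QGP-1 (circles) and BON-1 cells (squares), and right, log2 difference between the vehicle libraries of BON-1 and QGP-1 cells, each with its 95% interval and with open symbols where the adjusted p was 0.05 or above. The responses to DOX lie between −0.62 and 0.39, and the differences between the lines between −0.85 and 2.25.

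The partners of the family moved as well. TFDP1, the main DNA-binding partner of E2F proteins, was 69.8, 70.9 and 65.4 CPM in QGP-1 cells with vehicle and 58.4, 53.7 and 52.7 CPM with DOX. It was 148, 140 and 145 CPM in BON-1 cells with vehicle and 118, 125 and 121 CPM with DOX. Its log2 fold changes were −0.32 (SE 0.08, edgeR adjusted p = 0.00491) and −0.25 (SE 0.07, edgeR adjusted p = 0.00874), with no overlap of groups in either line. TFDP2, the other partner, was 47.4, 53.0 and 52.7 CPM with vehicle and 58.9, 63.7 and 63.0 CPM with DOX in QGP-1 cells. In BON-1 cells it was 46.2, 50.8 and 46.8 CPM with vehicle and 64.8, 68.1 and 74.6 CPM with DOX. It was thus higher in every DOX library, with log2 fold changes of 0.28 (edgeR adjusted p = 0.0141) and 0.53 (edgeR adjusted p = 2.66e-05). In QGP-1 cells it did not pass without vehicle replicate 1 (0.23, adjusted p = 0.0729), DOX replicate 2 (0.26, adjusted p = 0.0569) or DOX replicate 3 (0.26, adjusted p = 0.0528). RBL2, the pocket protein p130, had a log2 fold change of −0.22 in QGP-1 (edgeR adjusted p = 0.0189) and −0.01 in BON-1 cells (edgeR adjusted p = 0.969). It did not pass in QGP-1 cells without vehicle replicate 2 (−0.22, adjusted p = 0.0653) or DOX replicate 2 (−0.22, adjusted p = 0.0575).

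Classical E2F targets of the G1/S transition were lower or not called, and none was higher. Of 26 such genes tested, 13 were lower in QGP-1 and 8 in BON-1 cells, with median log2 fold changes of −0.23 and −0.16 against −0.01 for all genes. Of all genes tested, 17.7% were lower and 17.3% higher in QGP-1 cells, and 18.3% and 17.0% in BON-1 cells. In the promoter table, 15 of the 22 genes of this list with an entry held an E2F-type motif, against 2832 of all 27305 genes with an entry. CHAF1B, a subunit of the chromatin assembly factor, was 39.3, 39.5 and 37.7 CPM with vehicle and 28.4, 23.6 and 23.5 CPM with DOX in QGP-1 cells. In BON-1 cells it was 32.8, 29.3 and 33.1 CPM with vehicle and 21.1, 20.6 and 19.0 CPM with DOX. Its groups did not overlap, and the log2 fold changes were −0.62 and −0.65 (edgeR adjusted p = 0.000215 and 3.22e-05). MCM6, of the replicative helicase, had log2 fold changes of −0.56 and −0.35 (edgeR adjusted p = 2.57e-05 and 0.000988). TK1, thymidine kinase, had a log2 fold change of −0.33 in QGP-1 (edgeR adjusted p = 0.0413) and −0.59 in BON-1 cells (edgeR adjusted p = 0.000342). Its QGP-1 groups overlapped, and the call passed in 1 of 6 fits without 1 library, that without vehicle replicate 3, with log2 fold changes from −0.49 to −0.24. It was lost with library size in place of TMM too (−0.32, adjusted p = 0.0583).

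Genes of the G2/M phase, which MuvB complexes control together with the pocket proteins RBL1 and RBL2 or with MYBL2 and FOXM1, were called lower in unequal number in the lines. Of 16 tested, 11 were lower and 0 higher in BON-1 cells, with a median log2 fold change of −0.44 from edgeR. Of all genes, 18.3% were lower and 17.0% higher in BON-1 cells, and 17.7% and 17.3% in QGP-1 cells. In QGP-1 cells 4 of the 16 were lower (CDK1, AURKB, TTK and BIRC5) and 2 were higher (CENPF and MKI67), with a median of −0.08. Those named here other than AURKB were chosen after their values were seen. In the line by DOX interaction, 9 of the 16 had a lower and 1 a higher log2 fold change in BON-1 than in QGP-1 cells, with a median difference of −0.42, against 7.92% lower and 8.80% higher among all genes. AURKB, the kinase of chromosome segregation, had a log2 fold change of −0.39 in QGP-1 (edgeR adjusted p = 0.0169) and −0.54 in BON-1 cells (edgeR adjusted p = 3.77e-05). It did not pass in QGP-1 cells without vehicle replicate 1 (−0.36, adjusted p = 0.0587), vehicle replicate 2 (−0.29, adjusted p = 0.105) or DOX replicate 3 (−0.29, adjusted p = 0.0720). Of the 7 MuvB core genes and partners, 1 was lower in QGP-1 and 4 in BON-1 cells, against 17.7% and 18.3% of all genes. The QGP-1 count was not above that share. MYBL2, the partner that turns the complex into an activator, was called in both, at 47.4, 51.5 and 40.6 CPM with vehicle and 35.4, 37.5 and 32.3 CPM with DOX in QGP-1 cells. It was 113, 111 and 108 CPM with vehicle and 69.9, 78.3 and 67.2 CPM with DOX in BON-1 cells. The log2 fold changes of MYBL2 were −0.41 and −0.62 (edgeR adjusted p = 0.00563 and 8.25e-07), and LIN54, RBBP4 and FOXM1, named after their values were seen, were the others called lower in BON-1 cells.

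Genes upstream of the pocket proteins had calls in both directions, as did all genes (17.7% lower and 17.3% higher in QGP-1, 18.3% and 17.0% in BON-1 cells). Of the G1 cyclins and their kinases, 2 of 8 tested were lower and 2 higher in QGP-1 cells, and 1 of 7 was lower and 1 higher in BON-1 cells. CCND1, cyclin D1, whose kinase complex phosphorylates RB1, was called in both lines. It was 183, 193 and 179 CPM with vehicle and 251, 226 and 221 CPM with DOX in QGP-1 cells. In BON-1 cells it was 414, 374 and 386 CPM with vehicle and 419, 466 and 473 CPM with DOX. Every DOX library was above every vehicle library of its line, with log2 fold changes of 0.33 and 0.21 (edgeR adjusted p = 0.00231 and 0.0360). The BON-1 call was lost in 4 of 6 fits without 1 library (vehicle replicates 2 and 3 and DOX replicates 2 and 3, log2 fold changes of 0.17, 0.19, 0.18 and 0.16), with library size in place of TMM (0.17), with no filter on low counts (0.19) and with the replicate block (0.21, adjusted p = 0.0611). Of the CDK inhibitors, 1 of 7 tested was lower and 1 higher in QGP-1 cells, and 0 of 5 were lower and 2 higher in BON-1 cells. Named after their values were seen, these were CDKN1C and CDKN2B in the former and CDKN1A and CDKN1B in the latter. CDKN2A and CDKN2B, also named after their values were seen, were not tested in BON-1 cells, with means of 0 CPM in both groups. With all libraries scaled together, they were 80.1 and 37.2 CPM in QGP-1 cells with vehicle, and 84.7 and 64.4 CPM with DOX.

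Lists tied to single family members were small. The shares of all genes called were 17.7% lower and 17.3% higher in QGP-1 cells, and 18.3% lower and 17.0% higher in BON-1 cells. Of the 10 genes of the E2F6 partner complex, 1 was lower and 3 were higher in QGP-1 cells, and 0 were lower and 2 higher in BON-1 cells. In the line by DOX interaction, the response of 4 was called lower and of 2 higher in BON-1 than in QGP-1 cells. Among all genes these shares were 7.92% lower and 8.80% higher. CBX3, a chromodomain protein of that complex named after its values were seen, was the one called in both lines, lower in QGP-1 (−0.30, edgeR adjusted p = 0.00347) and higher in BON-1 cells (0.60, edgeR adjusted p = 4.18e-06). Among genes of apoptosis that E2F1 is known to induce, 0 of 7 were lower and 1 was higher in QGP-1 cells (BCL2L11), and 2 of 6 were lower and 0 higher in BON-1 cells (TP73 and PMAIP1), all 3 named after their values were seen. Of 7 germline genes known as targets of E2F6 repression, 2 could be tested in QGP-1 and 1 in BON-1 cells, and edgeR called none of them.

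**Figure D5:**
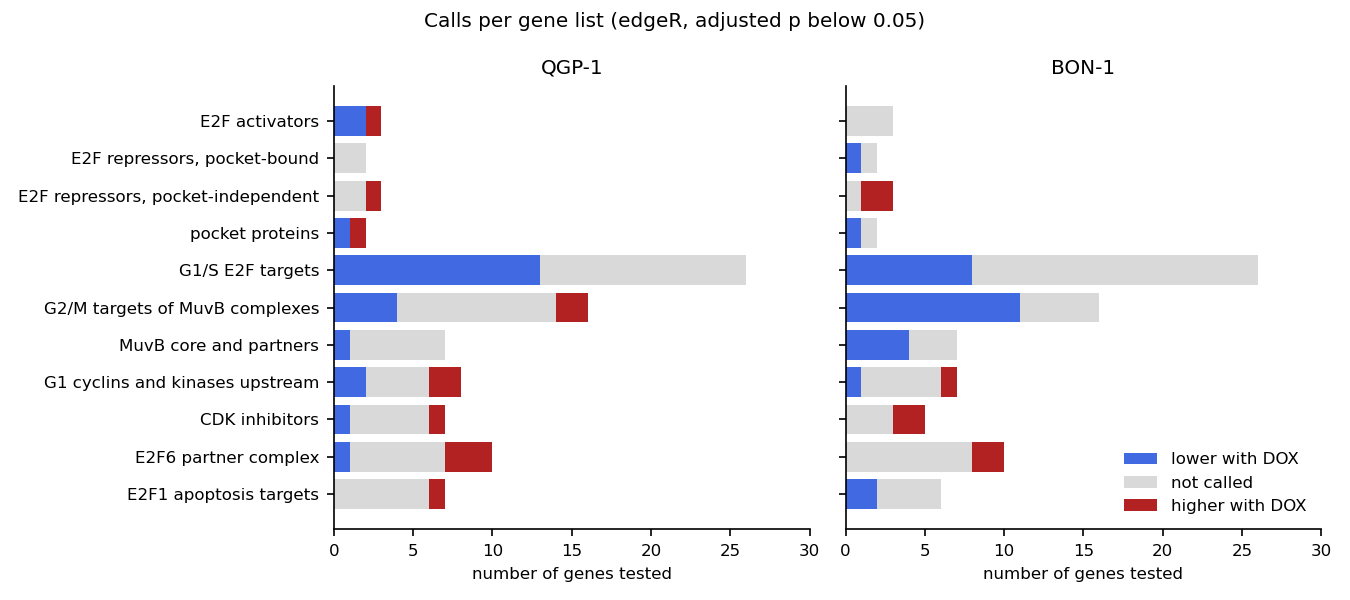
Number of genes called lower (blue), called higher (red) or not called (grey) with DOX for each gene list in QGP-1 and BON-1 cells, by edgeR at an adjusted p below 0.05. The G1/S targets had 13 genes lower in QGP-1 and 8 in BON-1 cells with 0 higher, and the G2/M targets had 4 and 11 lower. Of all genes tested, 17.7% were lower in QGP-1 and 18.3% in BON-1 cells.

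The genes most like E2F1 and RB1 across the libraries were found by Pearson's correlation of log2 CPM after the mean of each line was removed, over 12 libraries and 10069 genes. For E2F1 these were IMPA2 (r = 0.95), CYC1 (r = 0.95) and MINDY1 (r = 0.94), which like E2F1 had a more negative log2 fold change in QGP-1 cells (−0.84, −0.57 and −0.50) than in BON-1 cells (−0.05, −0.18 and −0.05). For RB1 they were TAB2 (r = 0.97), HIF1A (r = 0.95) and SYBU (r = 0.95), whose log2 fold changes were 0.24, 0.16 and 0.43 for QGP-1 cells and 0.04, 0.01 and −0.01 in BON-1 cells. The correlations share the libraries, their depth and the response to DOX, so like log2 fold changes follow from the choice of these genes. They are a description.

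The scaling bears on the directions given above. On the authors' TPM values the median of all log2 fold changes shifted to 0.59 in QGP-1 and −0.31 in BON-1 cells. In QGP-1 cells E2F1 and RBL1 then had log2 fold changes of 0.20 and 0.19, the opposite sign, but lay 0.40 and 0.41 below that median. For E2F7 in BON-1 cells the value was −0.06, which lay 0.25 above the median of that scaling. The shares and ratios within a library do not depend on it.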

How the data were processed

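The authors sequenced 3 cultures of each group as TruSeq Stranded mRNA libraries. Reads were aligned to GRCh38 (written GRCh38.74 in the paper) with STAR, whose version is not given in the sources used here. The authors deposited raw counts per gene, without normalization, and TPM values per gene, which are the counts divided by a gene length and scaled to a fixed total per library. Columns were matched to libraries by name, and 0 columns were left unused.

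The counts were tested in R 4.3.3 with edgeR 4.0.16 (filterByExpr, TMM, quasi-likelihood test, Benjamini-Hochberg adjustment over all genes tested, threshold 0.05) within each line, and for the interaction and the vehicle groups in 1 fit of 12 libraries. The standard error is the log2 fold change divided by the square root of F. Alternatives were DESeq2 1.42.0, plain library size scaling, all genes above 0, at least 10 counts per library, a replicate block, 12 libraries in 1 fit, limma 3.58.1 on log2(TPM + 1) where the mean TPM reached 1, a minimum absolute log2 fold change of 1, and leaving out each library. The code was tested on simulated data.

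The 10 members and the gene lists were chosen with earlier results of these data known. Lists were written from general knowledge. From each list, up to 3 genes with the largest absolute log2 fold change among those called the same way in both lines are named, with TFDP1, TFDP2 and RBL2, and for E2F1 and RB1 the 3 most correlated genes whose mean log2 CPM reached 3. Between replicates the counts differed beyond sampling noise (chi-square per gene 5.92 to 29.7). The 3 cultures of a group come from 1 cell line, so p-values measure the spread between cultures. Positions, overlaps and pseudogenes are those of GENCODE v44 on GRCh38, promoter windows from RefSeq on GRCh38.p14.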

Additional observations from a re-analysis of the deposited data

Results flagged for a closer look

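The response of E2F1 to DOX differed between the lines by a test of the difference itself, a line by DOX interaction term in edgeR. It was 0.48 higher in BON-1 than in QGP-1 cells on the log2 scale (SE 0.13, edgeR adjusted p = 0.0153 over 16598 genes). In QGP-1 cells all 3 DOX libraries were below all 3 vehicle libraries, whereas the BON-1 groups overlapped. In 8 of 12 fits with 1 library fewer it was called, and it was lost without QGP-1 vehicle replicate 1, QGP-1 DOX replicate 1, BON-1 vehicle replicate 3 or BON-1 DOX replicate 1, with values of 0.40, 0.38, 0.42 and 0.42. Line, growth medium and sequencing depth cannot be told apart in this difference. With DOX, MUC1 itself stood at 0.705 to 1.04 CPM in QGP-1 and 1.48 to 3.97 CPM in BON-1 cells. The cause of the difference in E2F1 response was not tested.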

How the results depend on the processing

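With limma on log2(TPM + 1), members lower and higher became 0 and 8 in QGP-1 cells (89 and 9149 of all genes) and 0 and 0 in BON-1 cells (335 and 34), with the medians of all genes at 0.59 and −0.31. Signs that turned in QGP-1 cells were those of E2F1 (0.20), E2F2 (0.28), E2F4 (0.46), E2F8 (0.47), RBL1 (0.19), TFDP1 (0.38), RBL2 (0.47), MYBL2 (0.29), CHAF1B (0.10), TK1 (0.41), MCM6 (0.18) and AURKB (0.33), and in BON-1 cells those of E2F3 (−0.17), E2F6 (−0.050), E2F7 (−0.062), RB1 (−0.32) and CCND1 (−0.15). A minimum absolute log2 fold change of 1 left 0 members in either line and direction, with 360 lower and 183 higher of all genes in QGP-1 and 447 and 272 in BON-1 cells. On raw counts without division by length the activator share was 50.8% and 48.5% in QGP-1 and 28.8% and 29.1% in BON-1 cells with vehicle and DOX, where the BON-1 groups overlapped. In BON-1 cells values near 0 turned for E2F2 (0.0068 by DESeq2, 0.0044 in 1 fit of 12 libraries), RBL2 (0.0073 and 0.0050) and RB1 (−0.015 with library size). Library size in place of TMM also called 1823 genes lower and 1123 higher in the interaction, against 1315 and 1461. Without 1 library, members higher ranged from 0 to 4 in QGP-1 cells (0 without vehicle replicate 1, 1 without vehicle replicate 2), from 1 to 2 in BON-1 cells (1 without vehicle replicate 1, vehicle replicate 2 or DOX replicate 2) and from 0 to 2 in the interaction (0 without QGP-1 vehicle replicate 1, BON-1 vehicle replicate 3 or BON-1 DOX replicate 1, 2 without QGP-1 vehicle replicate 3). The log2 fold changes that turned there ranged in BON-1 cells from −0.039 to 0.0074 for E2F2, −0.068 to 0.046 for RBL2, −0.068 to 0.085 for RB1 and −0.14 to 0.035 for E2F8, and in the interaction from −0.18 to 0.013 for E2F7. The cause of these changes was not tested. To look for pairing, log2 CPM of each gene was taken as its deviation from the group mean. The correlation of these deviations between same-numbered vehicle and DOX libraries lay between −0.10 and 0.16. Not every library correlated best with its own number, so the numbers were not taken to pair the samples. With the replicate block, members lower and higher were 4 and 3 in QGP-1 cells and 2 and 2 in BON-1 cells. DESeq2 and the 12-library fit gave the counts of members called that edgeR gave within each line.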
